A study of Mus musculus with 30 samples.

Results

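The sclera of 6-week-old mice was compared with that of 1-week-old mice, over every transcript cluster of the array that carries the symbol of a single gene. These were 21789 of the 35556 transcript clusters in the table, and they stand for 19938 genes. All mice were Balb/cJ, an albino inbred strain, and none had been treated. Each mouse gave the RNA of 1 sclera, which was measured on an Affymetrix Mouse Gene ST array (version 1.0) with probes spread over the exons of a gene. There were 6 arrays of week 1 and 6 of week 6, each from a different mouse, out of 30 arrays that also covered weeks 2, 3 and 8 with 6 mice each. The mice belonged to the same family, and neither their sex nor their litters are given in the labels. The p-values thus measure only the spread between these mice within an age, pooled over all 30 arrays. For a gene that spreads more at an age compared than at the others, the pooled SE can be too small. The comparison asks which genes differ between the sclera of an eye that is still growing fast and that of a young adult.

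The sclera is the tough white coat of the eye. Its fibroblasts lay down a dense mat of fibrillar collagen, mostly type I, which is bound by cross-linking enzymes, spaced by small proteoglycans and mixed with elastic fibres. Mouse eyes open and grow quickly in the first weeks after birth, and growth slows with weaning and sexual maturity. Extraocular muscles insert on the sclera, retina and pigment epithelium line its inside, and conjunctiva and cornea adjoin its front, so RNA of these tissues can be present in a preparation of the whole coat. In such bulk RNA, fewer cells of a type and less RNA per cell cannot be told apart.

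The arrays of the 2 ages lay apart. On the first principal component of the 12 arrays, which held 55.9% of their variance, the arrays of week 1 lay between -74.0 and -18.1 and those of week 6 between 42.3 and 63.6. The interquartile range of the log2 signals, a measure of how widely an array spreads its values, was 2.60 to 2.79 in week 1 and 2.26 to 2.64 in week 6. Transcripts that differ between the sexes did not fall together by age. Xist, the RNA that silences an X chromosome in females, stood at 10.98, 11.04 and 11.34 on week 1 replicates 3, 4 and 6 and at 4.71 to 5.59 on the other week 1 arrays, on the log2 scale. In week 6 it stood at 7.52 and 7.20 on replicates 1 and 2, at 4.44 and 4.62 on replicates 4 and 6, and at 1.70 and 1.71 on replicates 3 and 5. The Y-linked Eif2s3y ran the other way, at 7.78 to 8.04 on week 1 replicates 1, 2 and 5, at 2.61 to 2.70 on week 1 replicates 3, 4 and 6, and at 5.90 to 10.38 in week 6. These transcripts thus split the week 1 arrays and were not shared out equally between the ages, so counts are also given without week 1 replicates 3, 4 and 6, an alternative chosen after seeing the data. It leaves week 1 replicates 1, 2 and 5. The arrays left out also had the highest week 1 means of Mueller glia and inner retinal genes (8.01 to 8.36, the others 7.11 to 7.81). The same held for retinal transcription factors (7.74 to 8.15, the others 6.48 to 7.46). A change under this alternative thus cannot be assigned to the sex-linked or to the retinal signal. All 4 sex-linked transcripts measured were called in the comparison of the ages, with Xist lower and Eif2s3y, Uty and Kdm5d higher, and none was called without these 3 arrays. Single arrays sufficed to end the call of Xist (without week 1 replicate 6), Eif2s3y (without week 1 replicate 4), and Uty and Kdm5d (without week 1 replicate 3, 4 or 6 or week 6 replicate 3 or 5).

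The labelled tissue was checked against marker genes. The 13 markers of scleral fibroblasts, among them type I collagen, decorin and lumican, had a mean log2 signal of 9.9962 to 10.69 on the arrays of week 1 and 8.94 to 10.32 on those of week 6, and 4 of them were called lower in week 6 by the rule of a 2-fold change and an adjusted p of 0.05. Markers of other tissues were also present and differed between the ages. The mean of the 5 lens markers measured was 5.43 to 11.03 in week 1 and 5.49 to 5.9956 in week 6, with week 1 replicate 2 at the week 6 level, and 4 of the 5 were called lower. For the 5 photoreceptor markers measured it was 8.20 to 11.29 and 6.70 to 8.51, and for the 6 markers of striated muscle 9.88 to 12.02 and 9.22 to 11.18, with 5 of 5 and 4 of 6 called lower. The 4 endothelial markers had a mean of 8.58 to 9.18 and 7.27 to 8.80 (2 called lower), the 4 melanocyte markers 9.57 to 11.29 and 8.87 to 10.34 (2 called lower), and the 5 of the pigment epithelium 7.28 to 9.0037 and 7.21 to 8.51 (1 called lower). The 6 markers of corneal and conjunctival epithelium went the other way, with means of 8.38 to 10.38 in week 1 and 10.40 to 10.88 in week 6, which did not overlap, and all 6 were called higher. None of the 4 markers of macrophages (6.64 to 7.18 and 6.56 to 7.37), 4 of adipocytes (5.37 to 6.49 and 5.55 to 5.83) or 2 measured of Schwann cells (7.21 to 8.20 and 7.16 to 7.46) was called. As 5.71% of all genes were called, this says little for so few markers. The plot of list means shows how widely the week 1 arrays differed among themselves in lens, retina, muscle and epithelium.

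**Figure D1:**
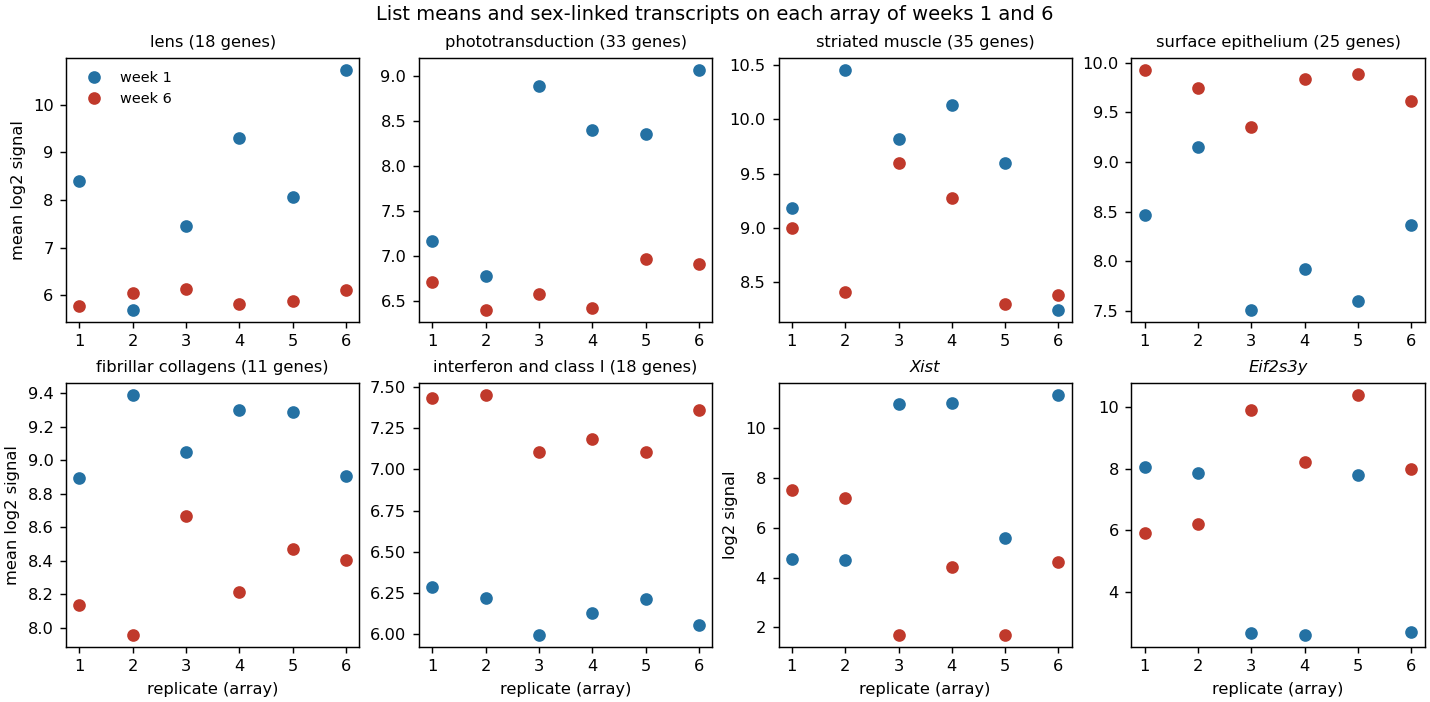
Mean log2 signal of 6 gene lists, and log2 signal of Xist and Eif2s3y, on each array (horizontal axis: replicate number, which pairs nothing; blue: week 1; red: week 6). Lens genes ran from 5.69 on week 1 replicate 2 to 10.73 on week 1 replicate 6, while the interferon list lay at 6.00 to 6.29 in week 1 and 7.10 to 7.45 in week 6.

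A gene was called where its fold change was at least 2 and its adjusted p was 0.05 or less in limma's moderated test, with the adjustment of Benjamini and Hochberg over all 35556 transcript clusters. By this rule 574 genes were higher in week 6 (2.88% of the 19938 genes) and 565 were lower (2.83%), 1139 or 5.71% in all. Counted as transcript clusters, 594 (2.73%) were higher and 634 (2.91%) lower. The median log2 fold change of all genes, week 6 minus week 1, was 0.11. The 6 arrays of week 6 all lay above or all lay below the 6 of week 1 in 25.9% of genes (16.7% above, 9.22% below) and in 808 of the 1139 genes called. The share of rises depended on how the spread of the arrays was treated. When this range was added to the fit as a covariate, a choice made after seeing the data, 847 genes were higher and 373 lower, so that 69.4% of the calls were rises against 50.4% without it. Without week 1 replicates 3, 4 and 6 the counts were 464 and 364.

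**Figure D2:**
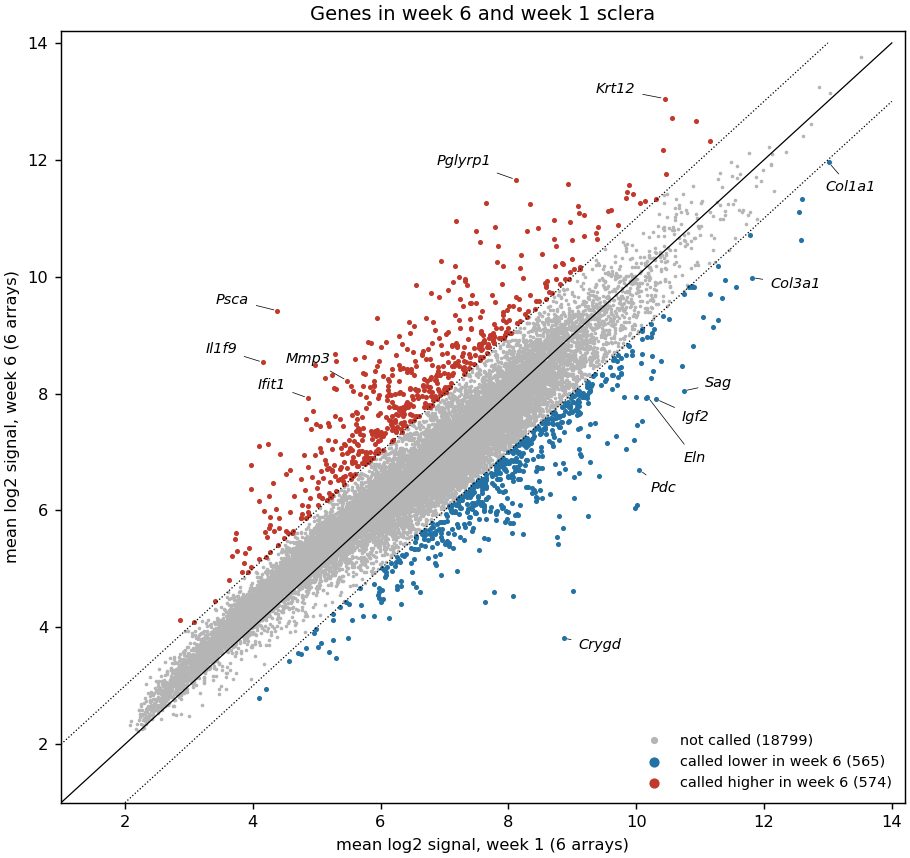
Mean log2 signal of each of the 19938 genes in week 1 (horizontal axis) and week 6 (vertical axis), 6 arrays each (red: called higher in week 6; blue: called lower; grey: not called; solid line: no difference; dotted lines: 2-fold). Psca and Il1f9 lie far above the line, and Crygd, Pdc and Igf2 far below it.

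The largest rises and falls of single genes come first. Among genes whose arrays did not overlap, Psca, a small surface protein of epithelial cells, was highest, at 4.08, 4.30 and 5.01 in week 1 (lowest, median and highest log2 signal of the 6 arrays) and 8.56, 9.42 and 10.38 in week 6. Its log2 fold change was 5.03 ± 0.52 (± SE, adjusted p = 2.59e-08). Il1f9, a cytokine of the interleukin 1 family made by epithelia, rose by 4.38 ± 0.27 (adjusted p = 8.02e-12). Next came Mal2, a membrane protein of polarized cells (3.77), Plet1 (3.61), the peptidoglycan-binding Pglyrp1 (3.54), the membrane mucin Muc15 (3.51), the protease inhibitor Spink5 (3.38) and Slurp1 (3.34). The largest falls without overlap were those of Pdc, which encodes the photoreceptor protein phosducin (-3.36 ± 0.55), and of the transcription factors Crx (-3.34 ± 0.42) and Neurod1 (-3.23 ± 0.48). Larger still were the falls of lens crystallins, whose arrays overlapped.

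**Figure D3:**
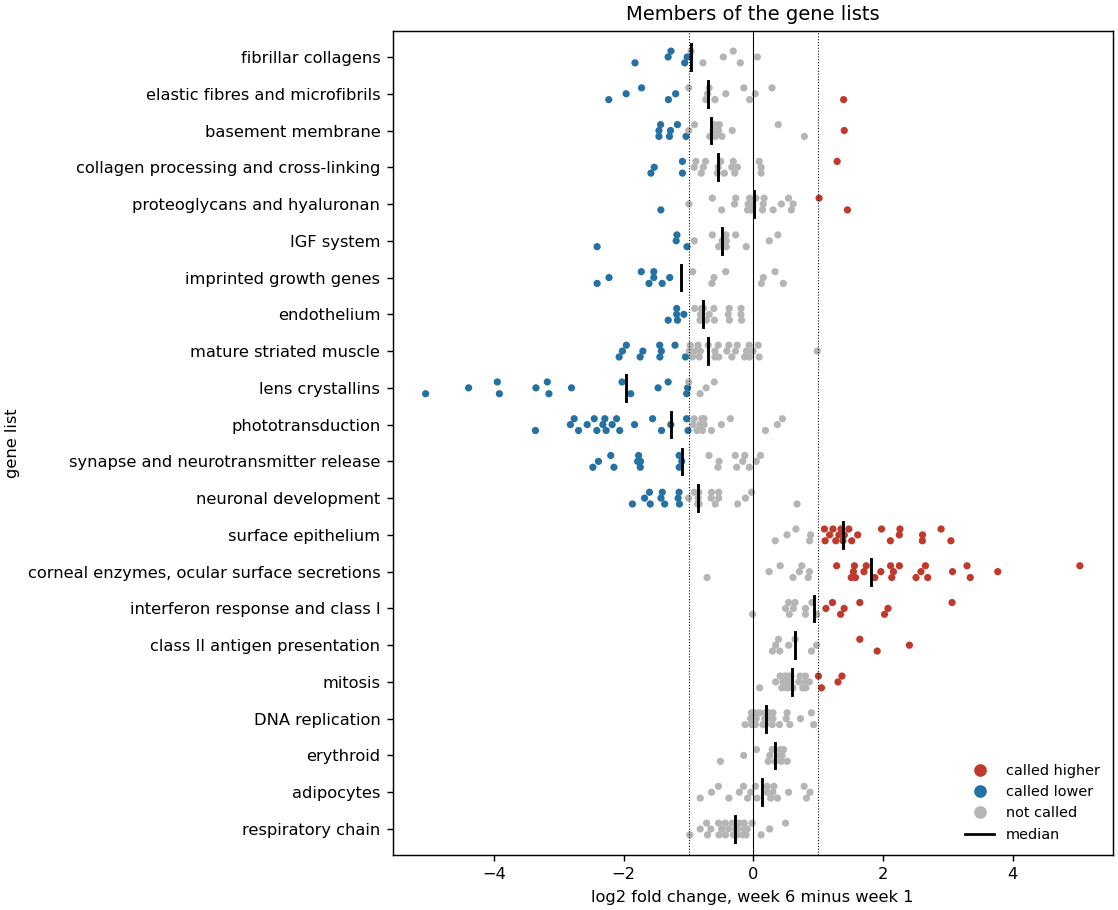
Log2 fold change (horizontal axis, week 6 minus week 1) of the measured members of 22 gene lists (red: called higher; blue: called lower; grey: not called; black bar: median of the list; dotted lines: 2-fold). Surface epithelium and ocular surface genes lie to the right, with medians of 1.38 and 1.81, and lens crystallins lie to the left, with a median of -1.96.

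The fibrillar collagens, which make the tensile fibrils of the sclera, were lower in part. Of 11 measured, 5 were called lower and none higher, with a median log2 fold change of -0.96 against 0.11 for all genes. Col1a1, a chain of type I collagen, stood at 12.79, 12.99 and 13.35 in week 1 and 11.26, 11.95 and 12.45 in week 6 (log2 fold change -1.06 ± 0.19, adjusted p = 4.07e-05). The ranges of the ages did not overlap, although the fold was close to 2. Without 1 array at a time it lay between -1.16 and -0.92, and the call was lost without week 1 replicate 5 or week 6 replicate 2. Its partner Col1a2 (-1.27) and Col5a2, a type V chain that limits the width of fibrils (-1.31), fell as well. Col3a1, the type III collagen of young and elastic tissue, changed most, from 11.37, 11.85 and 12.27 to 8.87, 9.99 and 10.81 (-1.82 ± 0.26, adjusted p = 2.16e-06). Col11a1 was also called (-1.02), but not without week 1 replicate 4, week 1 replicate 5 or week 6 replicate 2. Col5a1 (-0.96, adjusted p = 9.38e-05) and Col2a1 (-0.78) passed the adjusted p and not the 2-fold threshold. Without week 1 replicate 5 or week 6 replicate 2 there were 3 calls in the list. With the array spread as a covariate 3 of the 11 were called lower, and 5 without week 1 replicates 3, 4 and 6.

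Enzymes that finish and bind these fibrils were lower in part. In the list of collagen processing and cross-linking, 4 of 21 genes were called lower and 1 higher (median -0.54). Lox, lysyl oxidase, which starts the cross-links of collagen and elastin, stood at 7.39, 8.09 and 8.63 in week 1 and 6.22, 6.501 and 6.86 in week 6 (-1.58 ± 0.23, adjusted p = 3.10e-06). The lysyl hydroxylase Plod1 (-1.53), the prolyl hydroxylase P3h1 (-1.09) and Loxl1 (-1.09), an oxidase of elastic fibres, fell as well. The call of Loxl1 was lost without week 1 replicate 5 or week 6 replicate 2, and its value ranged from -1.22 to -0.98 over the 12 fits that leave out 1 array. The count of falls was 2 with the array spread as a covariate. The member called higher was P3h2, a prolyl hydroxylase of basement membrane collagen (1.29 ± 0.14). Of 15 other interstitial collagens, 3 were called lower, led by Col8a1 (-1.40), while Col6a1 (-0.79, adjusted p = 0.00215) and Col12a1 (-0.24, adjusted p = 0.524) were not. None of the 15 was called with the array spread as a covariate, and 1 was called without week 1 replicate 5 or week 6 replicate 5.

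Genes of elastic fibres were lower in part. Eln, which encodes elastin, stood at 9.67, 10.17 and 10.74 in week 1 and 7.34, 7.95 and 8.47 in week 6, with no overlap between the ages. The log2 fold change was -2.23 ± 0.24 (95% interval -2.73 to -1.73, adjusted p = 5.52e-08). The microfibril genes Mfap2 (-1.96 ± 0.20) and Fbn2 (-1.72 ± 0.23), Mfap5 (-1.31) and the fibulin Fbln2 (-1.20) fell too, so that 5 of 16 members were called lower (median -0.69). Efemp1, another fibulin, rose (1.39 ± 0.25, adjusted p = 4.20e-05), and Fbln1 did not pass (0.29, adjusted p = 0.147). Basement membranes had 7 of 20 genes called lower (median -0.65), among them the type IV collagens Col4a1 (-1.46) and Col4a2 (-1.46), perlecan Hspg2 (-1.43), the nidogen Nid1 (-1.29), the laminin chain Lamc1 (-1.28) and agrin Agrn (-1.17 ± 0.08). With the array spread as a covariate 4 of the 20 were called lower, and Nid1 (-0.89) and Agrn (-0.98) were not. Lama3, the laminin chain of epithelial anchoring, was the only one of the 20 called higher (1.40 ± 0.23, adjusted p = 1.64e-05).

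Proteoglycans had few calls. The 22 genes of proteoglycans and hyaluronan had a median log2 fold change of 0.01, with 1 called lower and 2 higher. Of all genes 2.83% were called lower and 2.88% higher, so these counts say little about the group. Versican, Vcan, a large proteoglycan of growing tissue, fell (-1.43 ± 0.22, adjusted p = 5.94e-06). The small leucine-rich proteoglycans that coat collagen fibrils were not called. Their log2 fold changes were 0.15 ± 0.25 for decorin Dcn, -0.08 ± 0.29 for fibromodulin Fmod, -0.49 ± 0.30 for lumican Lum and -0.99 ± 0.29 for biglycan Bgn. Biglycan lay just inside the 2-fold limit and was called lower in 7 of the 12 fits that leave out 1 array. The hyaluronan receptor Cd44 rose (1.45 ± 0.33). Has2, a hyaluronan synthase, was called higher at 1.01, but lost this call without week 1 replicate 3, 5 or 6 or week 6 replicate 1, 3 or 5, and its value ranged from 0.86 to 1.24 over the 12 fits. It also lost the call after median centring (0.95) and quantile normalization (0.99). Among 25 matricellular and adhesive glycoproteins, 4 were called lower, fibronectin Fn1 (-1.24 ± 0.18) and vitronectin Vtn (-1.26) among them, and Tgfbi was called higher (1.11). Without week 1 replicate 2 or week 6 replicate 2, 2 of the 25 were called lower, and 2 with the array spread as a covariate. Tgfbi, abundant in cornea, and Vtn were not called without week 1 replicates 3, 4 and 6 (adjusted p = 0.0641 and 0.0584).

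Of 22 matrix proteases and their inhibitors, stromelysin Mmp3 alone was called, and it rose. It stood at 4.95, 5.54 and 6.01 in week 1 and 7.47, 8.29 and 8.84 in week 6, without overlap, a log2 fold change of 2.74 ± 0.24 (adjusted p = 1.34e-09). Mmp14, a membrane-bound collagenase, had -0.82 ± 0.14 (adjusted p = 3.62e-05), and the inhibitors Timp2 (-0.17 ± 0.25) and Timp3 (-0.70 ± 0.31) did not pass the adjusted p. The falls among the matrix genes went with the rise of the epithelial markers given above and with the lower mean of the scleral fibroblast markers, of which 4 of 13 were called lower, all of them collagens that the fibrillar list also holds. The part of the mixture of tissues in these values was not tested.

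Genes of the insulin-like growth factor system were lower in part. Insulin-like growth factors drive the growth of tissues before and after birth, and their binding proteins hold them in the matrix and in the blood. Igf2, the fetal growth factor, stood at 9.57, 10.36 and 11.09 in week 1 and 7.48, 7.87 and 8.39 in week 6 (log2 fold change -2.41 ± 0.26, 95% interval -2.93 to -1.89, adjusted p = 3.28e-08). All arrays of week 1 lay above all of week 6. Igf1, the growth factor that depends on growth hormone, had -0.91 ± 0.25 (adjusted p = 0.00297) and the receptor Igf1r -0.42 ± 0.09, below 2-fold. Of the binding proteins, Igfbp4 (-1.19), Igfbp3 (-1.18) and Igfbp7 (-1.02) were called lower, and Igfbp5 had -0.27 ± 0.26 (adjusted p = 0.383). The call of Igfbp3 was lost without week 6 replicate 2 and that of Igfbp7 without week 1 replicate 1 or 5 or week 6 replicate 2, 4 or 5, whose value ranged from -1.21 to -0.88 over all 12 fits that leave out 1 array. In all, 4 of 15 genes of the system were called lower (median -0.48), and 2 without week 6 replicate 2. With the array spread as a covariate this was 1, Igf2.

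Imprinted genes, which are expressed from the copy of 1 parent and of which many govern growth before birth, were lower in part. Of 16 measured, 8 were called lower and none higher, with a median of -1.11, and the count was 8 in each fit that left out 1 array, without week 1 replicates 3, 4 and 6, and with the array spread as a covariate, where Grb10 lost its call (-0.99) and Peg10 gained one (-1.02). Besides Igf2, the members called without this covariate were Mest (-2.23 ± 0.28), the long noncoding RNA Meg3 (-1.73 ± 0.27), the amino acid transporter Slc38a4 (-1.61 ± 0.21), the zinc finger genes Peg3 (-1.54 ± 0.23) and Plagl1 (-1.53 ± 0.24), the adaptor Grb10, which restrains insulin signalling (-1.41 ± 0.24), and the cell cycle inhibitor Cdkn1c (-1.29 ± 0.18). Both promoters of growth, such as Igf2, and restrainers, such as Grb10 and Cdkn1c, were among them. Those not called were Peg10, Dlk1, Ndn, Sgce, Impact, Dcn, Rtl1 and Phlda2, with log2 fold changes from -0.93 to 0.46. Dcn belongs to the proteoglycans as well, and Igf2 to the growth factors.

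Meg3 lies at the start of an imprinted region of chromosome 12 that also holds Rian and Mirg, noncoding RNAs that host snoRNAs and miRNAs and are read from the maternal copy. The miRNA hairpins of this region were examined after their values had been seen, and they are described with no test of the group. Meg3 stood at 10.38, 11.14 and 11.29 in week 1 and 8.51, 9.29 and 10.18 in week 6, without overlap. Rian, chosen in the same way, fell too (-1.24 ± 0.14, adjusted p = 8.28e-08). Of 300 miRNA genes with a transcript cluster of their own, 18 were called lower and 1 higher, at a median log2 fold change of 0.16. Between the start of Meg3 and the end of Mirg lay 40 of them, and 12 of these 40 were called lower and none higher (median -0.46), against 6 lower and 1 higher among the other 260 (median 0.22). In each of the 12 the arrays of the 2 ages did not overlap, as in 808 of the 1139 genes called. A transcript cluster of a miRNA gene reports RNA that holds the hairpin, so the mature miRNA was not measured, nor which arm of the hairpin is kept.

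The 12 hairpins were Mir382, Mir380, Mir300, Mir487b, Mir377, Mir323, Mir329, Mir381, Mir495, Mir411, Mir541 and Mir539, in order of their log2 fold change from -2.01 ± 0.17 to -1.02 ± 0.14. Mir382 changed most, with log2 signals of 5.77, 6.56 and 7.15 in week 1 and 4.21, 4.60 and 4.91 in week 6 (adjusted p = 1.15e-09). Mir539, the smallest of them, lost its call without week 1 replicate 2, week 1 replicate 4 or week 6 replicate 6. All 12 lie in the last part of the region, between 169 and 201 kb from the start of Meg3, as the plot along the region shows. A further 14 hairpins of that stretch were not called. Mature forms of the 5 hairpins that changed most, and of Mir381, are given here, without miR-300-5p and miR-381-5p. For Mir487b only miR-487b-5p was read. The forms are given because the seed, bases 2 to 8 in capitals, sets which target sites a miRNA pairs with. They are RefSeq sequences on GRCm38.p6, all on the plus strand, with miR-380-5p at chr12:109711806-109711827, miR-300-3p at chr12:109724363-109724384, miR-381-3p at chr12:109726870-109726891, miR-487b-5p at chr12:109727347-109727367, miR-382-5p at chr12:109733781-109733802 and miR-377-5p at chr12:109740515-109740536.
miR-382-5p: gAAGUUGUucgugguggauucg
miR-382-3p: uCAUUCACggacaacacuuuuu
miR-380-5p: aUGGUUGAccauagaacaugcg
miR-380-3p: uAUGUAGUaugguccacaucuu
miR-300-3p: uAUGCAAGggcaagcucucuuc
miR-381-3p: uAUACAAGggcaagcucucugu
miR-487b-5p: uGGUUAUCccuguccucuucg
miR-377-5p: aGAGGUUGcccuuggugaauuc
miR-377-3p: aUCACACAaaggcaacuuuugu

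**Figure D4:**
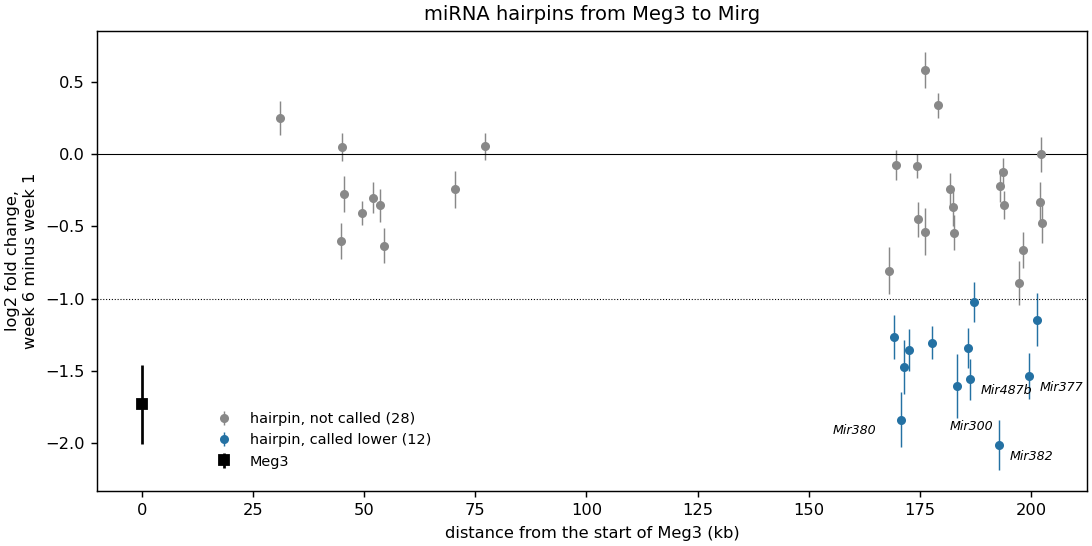
Log2 fold change with its SE (vertical axis, week 6 minus week 1) of the 40 miRNA hairpins and of Meg3, by distance from the start of Meg3 in kb (horizontal axis; blue: called lower; grey: not called; dotted line: 2-fold). The 12 hairpins called lower lie between 169 and 201 kb, and 5 hairpins of the region had a value above 0.

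The hairpins called outside this region were also named after their values had been seen. The 1 called higher was Mir205, known from stratified epithelia, which stood at 3.76, 4.57 and 5.37 in week 1 and 5.39, 5.97 and 6.43 in week 6 (1.39 ± 0.29, adjusted p = 2.25e-04). Lower were Mir126a, which lies in the endothelial gene Egfl7 (-1.37 ± 0.25), Mir1a-1 of striated muscle (-1.21 ± 0.31), Mir145a of smooth muscle (-1.12 ± 0.28), Mir181a-1 (-1.10) and Mir181b-1 (-1.36), which are neighbours on chromosome 1, and Mir218-1 (-1.09). The host gene Egfl7 itself had -0.98 ± 0.28 (adjusted p = 0.00500). Of these calls, that of Mir145a was lost without week 1 replicate 1 (-0.96), that of Mir1a-1 without week 1 replicate 2 (-0.95), that of Mir218-1 without week 1 replicate 3 (-0.9957) and that of Mir181a-1 without week 1 replicate 6 (-0.90). Without week 1 replicates 3, 4 and 6 the calls of Mir181a-1 (-0.58), Mir181b-1 (-0.79) and Mir218-1 (-0.74) were lost. Sequences of 18 of the 19 hairpins called were read, with 32 mature arms and 31 different seeds, and of these arms only miR-181a-5p and miR-181b-5p shared one. Arms from 5 of the 7 hairpins called outside the region follow, the shared seed among them, with the seed in capitals.
miR-205-5p: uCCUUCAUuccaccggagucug
miR-126a-3p: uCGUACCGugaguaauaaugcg
miR-181a-5p: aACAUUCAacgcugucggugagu
miR-181b-5p: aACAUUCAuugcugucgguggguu
miR-218-5p: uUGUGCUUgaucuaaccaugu
These lie at chr1:193507503-193507524 on the minus strand and, on the plus strand, at chr2:26591402-26591423, chr1:137966468-137966490, chr1:137966650-137966673 and chr5:48223966-48223986.

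Genes of blood vessels were lower in part. None of the 22 endothelial genes had a log2 fold change above 0, and 5 were called lower (median -0.78). These were Cdh5, the cadherin of endothelial junctions, at 8.65, 9.05 and 9.31 in week 1 and 6.94, 7.68 and 8.71 in week 6 (-1.31 ± 0.31, adjusted p = 9.38e-04), the receptors Tie1 (-1.18) and Aplnr (-1.17 ± 0.16), the adhesion molecule Esam (-1.18) and the coreceptor endoglin, Eng (-1.07). The arrays of Aplnr did not overlap, and those of Cdh5 and Tie1 did. Eng was not called without week 1 replicate 5, week 6 replicate 2 or week 6 replicate 5. Pecam1 (-0.61 ± 0.29) and the receptor Kdr (-0.68 ± 0.33) did not pass the adjusted p. Of 15 genes of smooth muscle and pericytes 4 were called lower (median -0.64), the pericyte receptor Pdgfrb (-1.18), Mcam (-1.16), smooth muscle actin Acta2 (-1.09) and the light chain Myl9 (-1.05), whereas the smooth muscle myosin Myh11 had 0.01 ± 0.37. With the array spread as a covariate 1 of the 15 was called, and 2 without week 6 replicate 2. Acta2 and Myl9 lost their call without week 1 replicate 1 or week 6 replicate 2 or 4, and Myl9 also without week 1 replicate 5 or week 6 replicate 5, at values up to -0.89 and -0.89.

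Striated muscle, of which the extraocular muscles insert on the sclera, had fewer members called than not. Of 35 genes of mature fibres 10 were called lower and none higher (median -0.70). The myosin of fast fibres Myh1 stood at 9.62, 11.54 and 11.71 in week 1 and 8.10, 9.28 and 9.89 in week 6 (-2.07 ± 0.39, adjusted p = 9.98e-05), and skeletal actin Acta1 at 11.36, 12.84 and 13.10 and 9.92, 10.60 and 11.64 (-1.96 ± 0.32). The ranges overlapped in both. Parvalbumin Pvalb (-2.02), the light chain Myl1 (-1.75), creatine kinase Ckm (-1.70) and the calcium pump Atp2a1 (-1.44) fell as well. Another fast myosin, Myh4, had 0.09 ± 0.55 (adjusted p = 0.901), titin Ttn -0.38 ± 0.36 and myoglobin Mb -0.33 ± 0.38, none of them called. The mean of the list ran from 8.24 to 10.46 over the arrays of week 1 and from 8.29 to 9.60 over those of week 6. Without week 1 replicate 6, the array of that age with the least muscle signal, 17 members were called lower, without week 6 replicate 3, 16, 14 without week 1 replicates 3, 4 and 6, and 3 with the array spread as a covariate.

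Isoforms of developing muscle had 1 call. Of 18 developmental isoforms and myogenic factors, the perinatal myosin Myh8 was called lower (-1.20 ± 0.37, adjusted p = 0.00823), and not without week 1 replicate 2, and the others were not called (median -0.17). Embryonic myosin Myh3, which extraocular muscle keeps in the adult, stood at 7.95, 8.89 and 11.64 in week 1 and 8.23, 10.07 and 10.67 in week 6 (0.50 ± 0.78, adjusted p = 0.5999). The regulator Myog had -0.40 ± 0.21 and the satellite cell factor Pax7 -0.16 ± 0.14.

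Lens crystallins, the packed proteins of lens fibres, had the lowest median of all lists, which were written with earlier results of these data known. Of 18 lens genes 14 were called lower, with a median of -1.96. Crygd stood on the week 1 arrays at 9.49, 3.45, 8.25, 10.80, 9.15 and 12.18 and on those of week 6 between 3.69 and 3.89 (-5.05 ± 0.88, adjusted p = 3.26e-05). Week 1 replicate 2 thus lay below the arrays of week 6, and the other 5 far above them. Cryba1 (-4.39 ± 0.82) and Cryaa (-3.95 ± 0.78) showed the same spread among the week 1 arrays, from 5.85 to 12.60 in Cryaa. Cryab, a crystallin that many tissues express, had -0.73 ± 0.19 and was not called. For no lens gene did the arrays of the ages separate, against 25.9% of all genes. Counts of members called lower ran from 10 to 15 when 1 array was left out, and 9 were called without week 1 replicates 3, 4 and 6.

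Genes of the retina were lower in part too. In phototransduction, by which rods and cones answer light, 19 of 33 genes were called lower (median -1.27). Arrestin Sag stood at 9.13, 11.15 and 11.84 in week 1 and 6.94, 8.04 and 9.16 in week 6 (-2.69 ± 0.49, adjusted p = 5.75e-05). The phosphodiesterase subunit Pde6b (-2.76 ± 0.52), the disc protein Prph2 (-2.56 ± 0.47), recoverin Rcvrn (-2.18) and rod transducin Gnat1 (-1.83) fell, and Guca1a did not pass (0.19 ± 0.33). Gnat1 was not called without week 6 replicate 2. The mean of the list was 7.17 and 6.78 on week 1 replicates 1 and 2 and 8.35 to 9.06 on the other 4 arrays of that age, against 6.40 to 6.97 in week 6. The count fell to 11 without week 1 replicates 3, 4 and 6. Of 18 retinal transcription factors 9 were called lower, Crx and Neurod1 first among them, and Pax6, which cornea, conjunctiva and lens also express, was called higher (1.12 ± 0.24, adjusted p = 2.96e-04), though not without week 1 replicate 5 (0.95).

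Neurons, glia and pigment cells of the inner eye had a smaller share of calls than the lens. Of 21 genes of the synapse 11 were called lower (median -1.10), with the release protein Snap25 (-2.47 ± 0.44), the calcium sensor Syt1 (-2.39 ± 0.46), synaptophysin Syp (-2.15 ± 0.39) and the glutamate carrier Slc17a7 (-2.20 ± 0.41), and the arrays of these 4 did not overlap. The count was 6 of the 21 without week 1 replicates 3, 4 and 6. Among 24 genes of Mueller glia and inner retinal neurons 8 were called lower, 5 without week 1 replicate 3 or 4, 4 with the array spread as a covariate, and 1 without week 1 replicates 3, 4 and 6. The pigment epithelium, which lines the retina and recycles its visual pigment, had 4 of 13 genes called lower, among them Rdh5 (-1.28 ± 0.36), and 1 without those 3 arrays, which was not Rdh5. The count was 2 without week 1 replicate 3 or week 6 replicate 2 or 4. Its defining isomerase Rpe65 stood at 7.89, 9.61 and 10.20 and 7.73, 9.21 and 10.24 (-0.24 ± 0.60, adjusted p = 0.746), and Rgr had -0.70 ± 0.50. Of 19 genes of melanin and melanocytes 3 were called lower, Pmel (-1.45), Tspan10 (-1.06) and tyrosinase Tyr (-1.17), while Dct had -0.19 ± 0.39. Without week 1 replicate 1 only Pmel kept its call, Tspan10 lost it without week 6 replicate 2 or 4 too, and 5 of the 19 were called without week 1 replicate 2 or without week 6 replicate 3 or 6. With the array spread as a covariate none of the pigment epithelium or melanin genes was called lower.

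Genes of growing neurons were lower in part. Of 25 genes of neuronal development 10 were called lower (median -0.86), and 9 to 13 when 1 array was left out. The arrays of the 2 ages did not overlap in 9 of these 10, against 808 of the 1139 genes called. Gap43, a protein of growth cones, stood at 7.70, 8.63 and 8.88 in week 1 and 6.74, 6.91 and 7.14 in week 6 (-1.60 ± 0.15, adjusted p = 3.65e-09). Nestin, Nes, an intermediate filament of progenitor cells that young vessels and muscle also make, stood at 6.72, 7.13 and 7.40 and 4.97, 5.39 and 5.69 (-1.68 ± 0.16, adjusted p = 5.61e-09). The growth cone protein Dpysl3 (-1.86 ± 0.21), the adhesion molecule Ncam1 (-1.40 ± 0.22) and the transcription factor Sox4 (-1.42 ± 0.16) fell too. The count was 7 without week 1 replicates 3, 4 and 6. Of 17 genes of myelin and Schwann cells 2 were called lower, the glial filament Gfap (-2.22 ± 0.56) and Cnp (-1.62 ± 0.29), and neither without those 3 arrays, whereas Mal, which epithelia also express, was called higher (1.99 ± 0.29).

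Genes of surface epithelium were higher in week 6. Keratins form the filaments of epithelial cells and desmosomes rivet the cells together. Of 25 genes 20 were called higher and none lower, all 25 had a log2 fold change above 0, and the median was 1.38. The list mean was 7.51 to 9.15 on the arrays of week 1 and 9.35 to 9.93 on those of week 6. Krt12, the keratin of corneal epithelium, stood at 7.92, 10.87 and 11.92 and 12.17, 13.18 and 13.47 (2.60 ± 0.63, adjusted p = 0.00112), and the 2 ages did not overlap. The desmosomal genes Dsc3 (3.04 ± 0.46), Dsp (2.89 ± 0.36) and Dsg3 (2.61 ± 0.37) rose most, and the keratins of the basal layer Krt5 (1.17 ± 0.24) and Krt14 (1.23 ± 0.29) less, as did their regulator Trp63 (1.32 ± 0.22). Keratins Krt13 (1.52 ± 0.27) and Krt4 (1.09 ± 0.31), which conjunctiva expresses, were called higher too, but Krt4 lost its call without week 1 replicate 3 (0.86). Krt5 lost its call without week 1 replicate 5, at 0.9956, just under 2-fold, and Krt14 and Krt4 without week 1 replicates 3, 4 and 6 (0.84 and 0.65). Krt19 (0.52 ± 0.28, adjusted p = 0.111) and plakoglobin Jup (0.65 ± 0.19) were not called. The count was 17 in the absence of week 1 replicates 3, 4 and 6.

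Enzymes and secretions of the ocular surface had the highest median of all lists. The lists were written with earlier results of these data known, so this rank is a description only. Of 30 such genes 22 were called higher (median 1.81), and the count was 22 in each fit that left out 1 array. The arrays of the 2 ages separated in 23 of the 30, as in 16.7% of all genes. Psca and Mal2, given above, belong to them. The water channel Aqp5 of cornea and lacrimal tissue stood at 6.92, 7.89 and 8.67 and 9.68, 10.53 and 11.01 (2.69 ± 0.42, adjusted p = 8.08e-06). The conjunctival Lypd2 (3.07 ± 0.58), the serine protease Tmprss11a (3.29 ± 0.57) and the gel-forming mucin Muc5ac (1.56 ± 0.21) of goblet cells rose as well. Aldh3a1, the abundant aldehyde dehydrogenase of the cornea, rose by 2.16 ± 0.49. Muc5ac and Aldh3a1 were picked from the list after their values had been seen. Clusterin, Clu, was the one member below 0, at -0.71 ± 0.14. Of 17 genes of the meibomian glands none was called higher and Elovl4, which photoreceptors also express, was called lower (-2.05 ± 0.35).

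Genes of the interferon response and class I were higher in part. Interferons switch on a set of antiviral genes, and class I molecules display peptides to killer T cells. Of 18 genes measured 8 were called higher and none lower (median 0.94), and the arrays separated upward in 13 of them, against 16.7% of all genes. Ifit1, which binds foreign RNA caps, stood at 4.63, 4.86 and 5.13 in week 1 and 7.13, 7.93 and 8.69 in week 6 (3.06 ± 0.31, adjusted p = 1.52e-08). Usp18, which restrains the interferon receptor, had 2.07 ± 0.21, the RNA sensors Oas2 2.02 ± 0.27 and Oas1a 1.40 ± 0.17, the transcription factor Irf7 1.64 ± 0.26 and the immunoproteasome subunit Psmb8 1.34 ± 0.16, all called. Tap1 (0.80 ± 0.15) and Psmb9 (0.90 ± 0.08) passed the adjusted p below 2-fold, and B2m, the light chain of class I, had -0.01 ± 0.19 (adjusted p = 0.961). Between 8 and 9 were called higher when 1 array was left out, and 7 without week 1 replicates 3, 4 and 6.

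Many interferon genes carry a response element near their start. This element was searched for as 2 copies of GAAA with any 2 bases between them, on both strands and after the values had been seen, and it was found in the 250 bases before the start of 6 of the 13 genes of the list in the RefSeq promoter table (46.2%), namely B2m, Ifit1, Ifit3, Oas1a, Gbp3 and Rsad2, and in 3.46% of the 27025 genes of that table. Of these 6, Ifit1, Ifit3 and Oas1a were called higher and the others were not. The string was thus in 3 of the 6 called genes with a promoter in that table and in 3 of the 7 not called. The windows of Ifit1 and Ifit3 hold 2 matches each, both on the strand opposite to the gene, and that of Oas1a 2 that overlap. A match is a string of letters and not a proven site. The windows are shown in the direction of the gene with the matches in capitals, on GRCm38.p6.
Ifit1, chr19:34640639-34640888, plus strand: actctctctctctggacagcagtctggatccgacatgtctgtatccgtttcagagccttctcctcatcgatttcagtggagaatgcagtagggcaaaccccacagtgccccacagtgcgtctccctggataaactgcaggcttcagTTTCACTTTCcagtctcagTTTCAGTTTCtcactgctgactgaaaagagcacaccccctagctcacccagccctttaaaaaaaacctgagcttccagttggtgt
Ifit3, chr19:34583279-34583528, plus strand: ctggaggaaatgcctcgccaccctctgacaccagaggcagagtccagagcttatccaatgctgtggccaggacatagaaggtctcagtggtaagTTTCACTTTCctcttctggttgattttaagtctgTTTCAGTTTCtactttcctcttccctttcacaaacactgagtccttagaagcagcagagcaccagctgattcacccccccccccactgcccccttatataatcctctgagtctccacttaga
Oas1a, chr5:120907526-120907775, minus strand: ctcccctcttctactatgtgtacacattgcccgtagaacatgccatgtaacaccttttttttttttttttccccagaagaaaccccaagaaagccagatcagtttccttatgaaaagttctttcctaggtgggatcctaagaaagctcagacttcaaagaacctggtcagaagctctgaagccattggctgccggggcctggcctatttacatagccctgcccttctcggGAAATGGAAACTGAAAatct

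Class II molecules, by which dendritic cells and macrophages show peptides to helper T cells, had 3 of 11 genes called higher and none below 0 (median 0.64). H2-Ea stood at 5.50, 5.73 and 5.97 in week 1 and 7.46, 8.25 and 8.48 in week 6 (2.40 ± 0.17, adjusted p = 9.04e-11). H2-Aa (1.91 ± 0.19) and the invariant chain Cd74 (1.64 ± 0.15) rose, and H2-Ab1 had 0.64 ± 0.15, below 2-fold. Of 29 general genes of macrophages and leukocytes only the integrin Itgam was called higher (2.01 ± 0.29), while Cd68 (0.53 ± 0.13), Adgre1 (-0.01 ± 0.09) and Lyz2 (0.48 ± 0.26) were not called. The list mean of leukocyte genes was 6.05 ± 0.14 in week 1 and 6.26 ± 0.11 in week 6 (SD, n = 6). In complement C7 was called, 1 of 19, at 3.99, 4.23 and 4.94 in week 1 and 5.18, 6.02 and 6.88 in week 6 (1.65 ± 0.22, adjusted p = 1.02e-06). Pigr, which carries antibodies across epithelium, was the 1 of 12 genes of mucosal immunity called higher (1.51 ± 0.16). As 2.88% of all genes were called higher, the single calls in the leukocyte, complement and mucosal lists say little about those lists.

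Genes of cell division were higher or not called. All 24 mitosis genes measured had a log2 fold change above 0 (median 0.59), and 4 were called higher. The proliferation marker Mki67 stood at 6.35, 6.94 and 7.84 in week 1 and 7.39, 8.03 and 8.43 in week 6 (1.05 ± 0.26, adjusted p = 0.00131), with overlap. Topoisomerase Top2a (1.0024 ± 0.28) and the cytokinesis genes Anln (1.30 ± 0.29) and Kif23 (1.36 ± 0.28) were the others called. Mki67 and Top2a lay close to 2-fold and lost their call without week 1 replicate 3 or 5 or week 6 replicate 1, 2 or 4, and Top2a also without week 1 replicate 6, at values down to 0.93 and 0.87. The count of members called higher was 2 in each of the 5 fits named for both, 2 after median centring, 2 without week 1 replicates 3, 4 and 6 and 9 with the array spread as a covariate. None of 25 genes of DNA replication was called (median 0.19), with the clamp Pcna at 0.30 ± 0.20 and the helicase subunit Mcm7 at -0.13 ± 0.15. At an adjusted p of 0.05 without a fold threshold 8 of them were higher and 0 lower. By that rule 7179 of all 19938 genes were higher and 4624 lower, so the 8 rises say little about these genes. With the array spread as a covariate 3 of the 25 were called higher, and 847 of all genes. The mean of the epithelial markers differed between the ages as given above, and its part in the mitosis values was not tested.

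Promoters of mitosis genes often hold CCAAT, the box bound by NF-Y, and TTTGAA, the cell cycle homology region. Searched on both strands in the 250 bases before the start, CCAAT was found in 16 of the 19 mitosis genes in the table (84.2%), in 12 of 21 replication genes (57.1%) and in 37.5% of all 27025 genes. TTTGAA was found in 8 of the 19 (42.1%), in 2 of the 21 (9.52%) and in 18.3% of all genes. GCGGGAAA, a form of the E2F site, was found in none of the 19, in 2 of the 21 and in 1.03% of all. Of the 4 mitosis genes called higher, Mki67, Top2a and Kif23 hold CCAAT, and Mki67 and Top2a hold both. Their windows are shown with the matches in capitals.
Top2a, chr11:99024190-99024439, minus strand: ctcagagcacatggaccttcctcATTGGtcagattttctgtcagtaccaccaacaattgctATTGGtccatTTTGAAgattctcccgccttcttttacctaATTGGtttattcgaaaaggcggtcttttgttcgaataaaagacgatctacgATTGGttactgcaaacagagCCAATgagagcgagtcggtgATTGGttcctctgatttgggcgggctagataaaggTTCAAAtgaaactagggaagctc
Mki67, chr7:135716380-135716629, minus strand: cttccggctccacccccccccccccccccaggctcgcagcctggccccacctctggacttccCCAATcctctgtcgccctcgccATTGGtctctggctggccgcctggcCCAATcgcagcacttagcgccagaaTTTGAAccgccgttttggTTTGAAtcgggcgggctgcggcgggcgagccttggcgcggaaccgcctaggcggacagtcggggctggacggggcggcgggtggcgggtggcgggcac

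The remaining lists had few calls. As 5.71% of all genes were called, few or no calls in a list of this size say little. None of the 27 genes of the respiratory chain (median -0.28), 21 PGC-1 coactivators and partner genes (-0.16), 20 adipocyte genes (0.13) or 13 erythroid genes (0.33) was called by this rule in limma's fit. Without the fold threshold 1, 4, 7 and 8 of them were higher and 13, 5, 2 and 1 lower, beside 7179 higher and 4624 lower of all 19938 genes. At an unadjusted p under 0.05 the numbers were 17, 11, 11 and 10 in either direction, and the share over all genes was not counted. Of 22 TGF-beta and BMP signals Eng alone was called, and of 24 Wnt ligands and inhibitors the decoy receptor Frzb, lower (-1.0031 ± 0.23), which lost its call without week 1 replicate 2, 3 or 4 or week 6 replicate 1, 5 or 6, at values up to -0.81. The Wnt inhibitor Sfrp1 had 0.71 ± 0.20. In the circadian clock Nr1d1 was called higher (1.04 ± 0.14), 1 of 16, and lost its call without week 1 replicate 1, week 1 replicate 2 or week 6 replicate 3, at values down to 0.93. Of 20 immediate early genes Klf4, also a factor of epithelial differentiation (1.95 ± 0.24), and Ier3 (1.34 ± 0.17) rose, and Dusp1 had 0.05 ± 0.25.

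Of the 30 measured genes that the study followed, 7 were called lower, namely Neurod1, Igf2, Col3a1, Fbn2, Col5a2, Col1a2 and Fyn, and Krt17 was called higher. The study chose them on these samples, so their count is not independent evidence of a direction. Fyn, a kinase of cell adhesion, had -1.03 ± 0.20 and lost its call without week 1 replicate 3, week 6 replicate 2 or week 6 replicate 6, and the keratin Krt17 (1.10 ± 0.31) without week 1 replicate 3. Egfr, the receptor for epidermal growth factor, had 0.90 ± 0.14 (adjusted p = 7.67e-06), just under 2-fold. The reference genes Actb (-0.11 ± 0.08) and Hprt (0.03 ± 0.14) did not pass the adjusted p.

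The other ages fill in the course to week 6. The contrasts of week 6 with week 3 and of week 8 with week 6 share the week 6 arrays with the comparison above. The ages in them also differ in the sex-linked transcripts. Xist stood at 12.57 to 12.94 in week 3, 1.70 to 7.52 in week 6 and 10.05 to 10.48 in week 8. Eif2s3y stood at 0.59 to 0.81, 5.90 to 10.38 and 2.41 to 2.77. Age cannot be told apart from this difference in these contrasts, and its part was not tested. Elastin had its highest mean in week 3. Its means (± SD, n = 6) at the 5 ages, in their order, were 10.18 ± 0.43, 10.04 ± 0.67, 11.06 ± 0.36, 7.95 ± 0.41 and 8.66 ± 0.27, and the log2 fold change of week 6 over week 3 was -3.11 (adjusted p = 3.59e-11). Igf2 went from 10.31 ± 0.56 in week 1 to 8.75 ± 0.68 in week 2, and stood at 9.08 ± 0.28, 7.90 ± 0.31 and 7.98 ± 0.37 after that. Meg3 was at 8.76 ± 0.63 in week 2 already, and at 9.32 ± 0.55 in week 6. Col1a1 had means of 13.01, 12.23, 12.79, 11.95 and 12.30 over the 5 ages, with week 3 near week 1. Acta1 was lower in weeks 2 and 3 (8.36 and 8.66) than at either age compared here (12.59 and 10.63).

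Of the genes that rose, Psca and Krt12 stood near their week 6 level in week 2 and Ifit1 did not. Psca had means of 4.39, 8.76, 9.64, 9.42 and 9.17 at the 5 ages. Krt12 went from 10.44 to 13.07 in week 2 and was at 13.05 in week 6. Ifit1 went from 4.86 ± 0.20 to 5.67 ± 0.54 and 5.84 ± 0.52, had its highest mean in week 6, 7.93 ± 0.55, and was 6.26 ± 0.84 in week 8. Its difference of week 6 from week 3 was 2.08 (adjusted p = 2.17e-06) and that of week 8 from week 6 -1.67 (adjusted p = 9.79e-05). H2-Ea had means of 5.73, 6.18, 6.65, 8.14 and 7.58. Mmp3 had 5.48, 6.29, 7.12 and 8.22, with 1.10 between weeks 3 and 6 (adjusted p = 2.78e-04), and it was 7.59 in week 8.

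**Figure D5:**
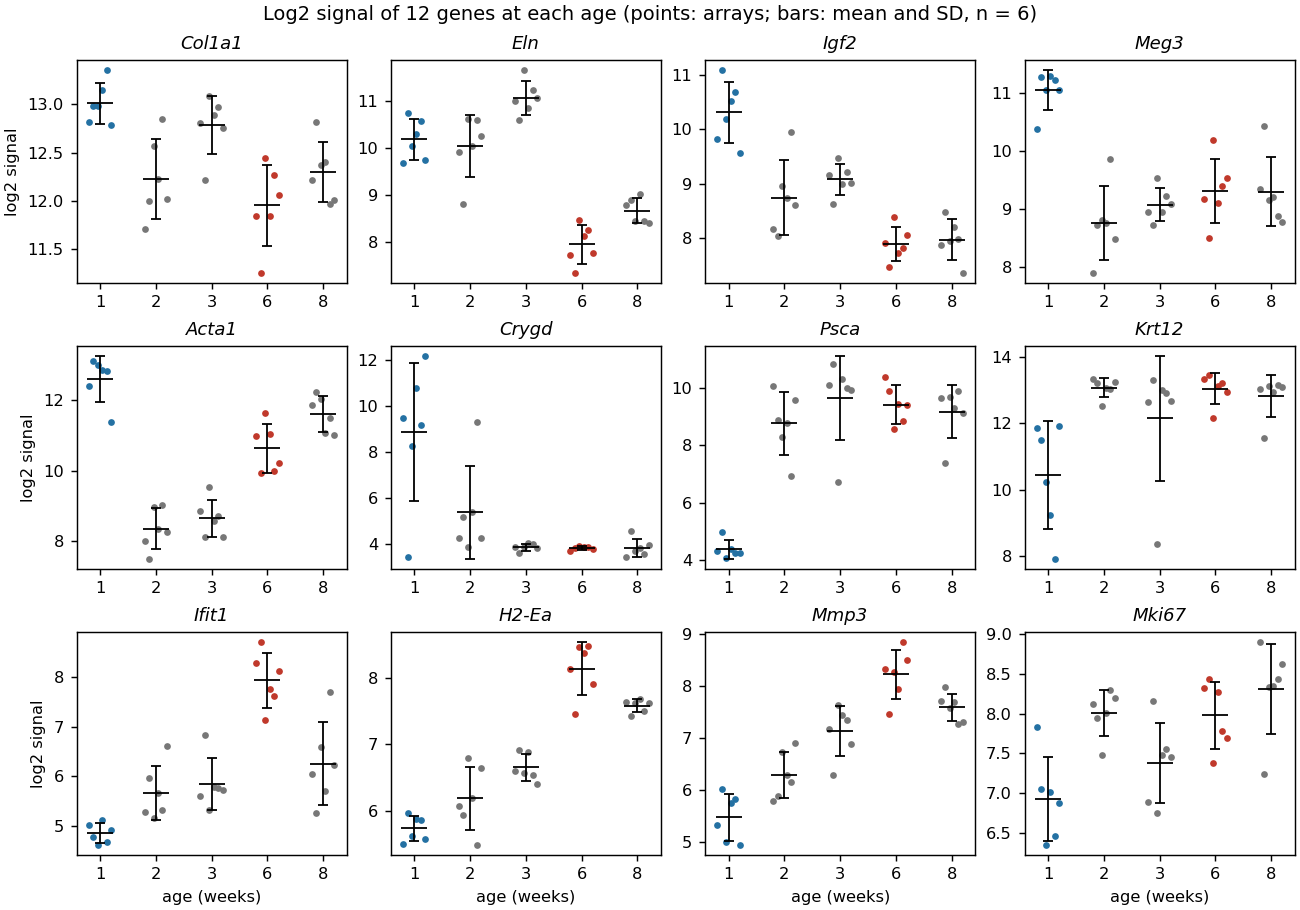
Log2 signal (vertical axis, a scale for each gene) of 12 genes on the 6 arrays of each age (horizontal axis, weeks; points: arrays; bars: mean and SD; blue: week 1; red: week 6; grey: other ages). Eln, for example, has a mean of 11.06 in week 3 and 7.95 in week 6, and Crygd spreads from 3.45 to 12.18 over the week 1 arrays.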

How the data were processed

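RNA of 1 sclera per mouse was measured on 30 whole-transcript arrays (Mouse Gene 1.0 ST), 6 each at weeks 1, 2, 3, 6 and 8. The values are the deposited log2 signals of 35556 transcript clusters. According to the study's methods the authors normalized the arrays by RMA and removed a batch effect of scan date in Partek Genomic Suite, while GCRMA and Partek 6.5 stand in the processing notes of the submitters. Whether the deposited log2 values were taken before or after batch removal, and the scan dates, are not given in the sources used here, so no batch could be fitted. The number of arrays limits the precision.

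Transcript clusters with 1 gene symbol in the platform annotation were kept as members (21789), those with several (1621) or none (12146) entered the fit only. A gene with several clusters (999 genes) took the cluster with the highest mean signal over all arrays. Limma 3.58.1 in R 4.3.3 fitted 1 mean for each week over all 30 arrays, with moderated variances, and week 6 minus week 1 was the contrast. The Benjamini-Hochberg adjustment ran over all 35556 transcript clusters, with the thresholds of the study's methods (2-fold, 0.05). The fit was tested on simulated data with known changes. The members and the gene lists were chosen with earlier results of these data known. The lists held 886 symbols, of which 823 genes were measured 60 symbols had no single-symbol transcript cluster and 3 named a gene that another listed symbol also names. Named were the 15 genes with the largest rise and fall among those whose arrays did not overlap, in each list up to 6 members called in each direction and 3 not called with the highest signal, and all members of a few short lists. Genes named outside this rule are marked as such. Sequences came from RefSeq tables (GRCm38.p6). Alternatives were median centring, quantile normalization, a filter at the median signal, array quality weights, only the 12 arrays compared, the replicate number as a block, no moderation, no fold threshold, the mean of a gene's transcript clusters and leaving out each array.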

Additional observations from a re-analysis of the deposited data

Results flagged for a closer look

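In 26 of 562 groups of 6 arrays tested (means of lists and log2 signals of named genes, weeks 1 and 6), 1 array lay far from the other 5 by Dixon's test, a share close to the 1 in 20 that chance gives. In week 1, replicate 1 was highest in the mean of DNA replication genes (6.83, the others 6.37 to 6.53), in Acta2 (11.92, the others 10.51 to 10.96) and in Myh11 (10.26, the others 8.47 to 9.01), and lowest in Meg3 (10.38, the others 11.04 to 11.29) and Gap43 (7.70, the others 8.49 to 8.88). Week 1 replicate 2 was lowest in the mean of the pigment epithelium list (7.64, the others 8.75 to 9.33), in Rgr (9.54), Igf1r (8.71), Kdr (8.79) and Clu (10.14), and highest in Psca (5.01) and Psmb8 (6.32). Week 1 replicate 5 was highest in Mir126a (5.72), and week 1 replicate 6 lowest in Slc38a4 (6.1998) and Myh1 (9.62).

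In week 6, replicate 3 was lowest in 7 epithelial and other genes, Mal2 (9.66), Plet1 (10.64), Dsc3 (9.45), Aldh3a1 (12.07, the others 12.69 to 13.02), Tmprss11e (7.26), Sfrp1 (8.398) and Oas3 (6.08), and highest in Mir487b (5.91). Week 6 replicate 2 was lowest in Has2 (6.59), Cd74 (6.41) and Cyp2f2 (7.79). Despite these values, all 6 arrays of week 6 lay above all of week 1 in Psca, Mal2, Plet1, Dsc3, Aldh3a1 and Cd74. Why single arrays stood apart was not tested.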

How the results depend on the processing

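Over the alternatives tried, counts of calls moved most with the fold threshold. Without it 7179 genes (7719 transcript clusters) were higher and 4624 (5108) lower, and 549 instead of 217 genes of the lists were called. Without week 1 replicates 3, 4 and 6 364 genes (414 transcript clusters) were called lower, and with the array spread as a covariate 373 (409). Leaving out 1 array at a time gave 526 to 626 genes called higher, 496 to 697 called lower, 543 to 657 transcript clusters called higher, 558 to 782 called lower and 198 to 240 list genes called. The largest counts of falls came without week 1 replicate 2. Median centring lowered the median of all genes by 0.058, and 43.4% of its calls were rises. Of the genes called at first, quantile normalization shared 1051, median centring 1069, array quality weights 1130 and the array spread covariate 910, and the last 2 alternatives called 1271 and 1220 genes. Of the 237 genes named in the text, 181 were called, and 122 of these kept the call under each alternative. Without week 1 replicates 3, 4 and 6 the calls lost numbered 28 and with the array spread covariate 35, against 3 to 8 under centring, quantile normalization, quality weights and the 12 arrays alone. The Y-linked Uty changed sign, to -0.22 without week 1 replicates 3, 4 and 6 (adjusted p = 0.829, against 0.0326 with them); the causes were not tested. Groups share replicate numbers in the labels, but arrays with the same number did not deviate together (correlations from -0.079 to 0.099), and no array correlated best with its own number. With the replicate number as a block 574 genes were higher and 565 lower, with the same 1139 genes called. Each age holds every replicate number once, so this block could not change a fold change. The equal counts thus say little about pairing. The sex, litter and scan date of the mice are not known, signals near background compress fold changes, and the mixture of tissues in each preparation cannot be separated from expression in the sclera.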

Other observations

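Several gene families, of which some members stand in lists of the report, were counted after their values had been seen, so their counts are a description without a test. Of all genes 2.88% were called higher and 2.83% lower. Tmprss11 serine proteases, made by squamous epithelium, had 6 of 7 genes called higher (median log2 fold change 2.49), with Tmprss11e at 4.99, 6.23 and 6.99 in week 1 and 7.26, 9.01 and 9.69 in week 6 (2.81 ± 0.43) and Tmprss11b at 2.74 ± 0.39. Of 24 serpins of clade B, inhibitors inside epithelial cells, 7 were called higher, among them Serpinb11 (3.00 ± 0.42) and Serpinb2 (1.44 ± 0.19). The mucins had 6 of 12 called higher, with Muc4 at 1.96 ± 0.30 and Muc1 at 1.57 ± 0.29. Of 7 chloride channel accessory proteins 4 were called higher, led by Clca3b (2.72 ± 0.29) and Clca2 (1.79 ± 0.22), and of 28 claudins, which seal epithelial junctions, 4, with Cldn7 at 2.77 ± 0.30. No gene of these 5 families was called lower, which says little at a share of 2.83% over all genes. Among 12 annexins 4 were called higher, Anxa8 (2.37 ± 0.41) and Anxa1 (1.75 ± 0.25) among them, and Anxa6 was called lower (-1.02 ± 0.14), though not in 6 of the 12 fits that leave out 1 array, that without week 1 replicate 1 among them (-0.95 at most).

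The interleukin 1 family had 4 of 11 genes called higher and none lower. Besides Il1f9, Il1a stood at 3.84, 4.08 and 4.36 in week 1 and 5.86, 7.10 and 8.02 in week 6 (3.00 ± 0.36, adjusted p = 2.27e-07), and Il18 at 5.22, 5.59 and 6.18 and 6.52, 7.02 and 7.77 (1.36 ± 0.21). Oas enzymes, which sense double-stranded RNA, had 6 of 11 called higher, with Oasl2 at 1.89 ± 0.23 and Oas3 at 1.56 ± 0.24, while the RNA sensor Ifih1 had 1.97 ± 0.23. Beta-tubulins, the building blocks of microtubules, went the other way, with 5 of 7 called lower and none higher. These were Tubb4a (-1.37 ± 0.22), Tubb2b (-1.14 ± 0.17), Tubb3 (-1.14 ± 0.21), Tubb6 and Tubb2a. Tubb3 and Tubb2a lost their call without week 1 replicate 3, Tubb2a also without week 1 replicate 6 or week 6 replicate 2, and Tubb6 without week 1 replicate 2 or week 6 replicate 2. Without week 1 replicates 3, 4 and 6 only Tubb6 of the family was called lower, with Tubb4a at -0.82, Tubb2b at -0.83, Tubb3 at -0.58 and Tubb2a at -0.73, and 2 of the 7, Tubb3 and Tubb4a, were called with the array spread as a covariate. Carbonic anhydrases split, with 2 of 16 called higher, Car5b (1.88 ± 0.30) being 1 of them, and 5 called lower, led by Car2 (-2.08 ± 0.40, and -1.14 without week 1 replicates 3, 4 and 6), an enzyme of glia and red cells. The falls numbered 3 with the array spread as a covariate. Of 87 cytochromes P450 7 were called higher and none lower, against 2.88% and 2.83% of all genes, with Cyp2f2 at 2.51 ± 0.53.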
